A study of Homo sapiens with 16 samples.

Results

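Nuclear receptor genes were examined in Mia-PaCa-2 and PANC-1, both established cell lines of human pancreatic carcinoma. The set holds 39 genes, chosen by name from the 63677 gene identifiers of the deposited count table and found there without exception. Each line was cultured for 24 hours without drug (control), with 50 μmol/L genistein, with 40 nmol/L gemcitabine, or with both drugs at these concentrations. Genistein is a soy isoflavone that binds estrogen receptors, and gemcitabine is a nucleoside analogue used against pancreatic cancer. Each of these 8 groups has 2 libraries, numbered I and II in the labels and called replicates 1 and 2 here. The study's methods call them biological replicates. Neither the methods nor the labels state whether they came from separate cultures, so p-values measure the spread between these libraries. All cells grew in the same medium with fetal bovine serum, which itself carries hormones and lipids, and the labels name no genetic change in any group. Poly-A RNA was sequenced in all 16 libraries.

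Nuclear receptors are transcription factors that sit on DNA and change the output of nearby genes when a small fat-soluble ligand binds them. Steroid receptors mostly pair with themselves, whereas receptors for vitamin D, thyroid hormone, retinoic acid, oxysterols and fatty acids pair with a retinoid X receptor. Many receptors without ligand recruit corepressors such as NCOR1, and ligand-bound receptors recruit coactivators such as the NCOA family. In the pancreas, NR5A2 supports the acinar cell, and the vitamin D receptor (VDR) is known as a brake on the activation of stellate cells.

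The libraries held between 12943482 and 31991860 reads counted on genes. Replicates of a group differed beyond sampling noise in every group, with a chi-square per degree of freedom from 2.70 in PANC-1 with genistein to 32.0 in untreated PANC-1. The PANC-1 controls also differed in their dependence on the GC content of genes, with a slope of 0.29 log2 units per 10 percentage points of GC in replicate 1 and -0.07 in replicate 2. The epithelial markers KRT8 and KRT18 and the mesenchymal marker VIM were high in all 16 libraries, with KRT8 between 369 and 1076 FPKM. FPKM are scaled to transcript length and to library size, and they allow levels of different genes to be compared. EPCAM was listed at 0 in all 8 Mia-PaCa-2 libraries and lay between 7.71 and 12.8 FPKM in PANC-1. In CPM (defined below, here TMM-normalised), epithelial CDH1 and KRT7 and mesenchymal CDH2 reached at most 0.126, 0.566 and 0.0472 in Mia-PaCa-2. In PANC-1 they lay between 5.61 and 24.2, 1.80 and 6.16, and 32.0 and 44.8 CPM. KRT19 and ZEB1 were counted in all 16 libraries. The 4 acinar, 3 endocrine, 2 endothelial and 3 fibroblast markers summed to at most 0.390 FPKM per list in any library. The 3 leukocyte markers summed to at most 4.98 FPKM in Mia-PaCa-2 and 1.48 FPKM in PANC-1.

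Of the 39 genes, 20 were expressed above a mean of 1 FPKM in untreated Mia-PaCa-2 and 23 in untreated PANC-1. A total of 22 genes passed the low-count filter in both lines, ESR2 only in Mia-PaCa-2, THRB and HNF4G only in PANC-1, and 14 genes in neither. No read was counted in any library for ESR1 (estrogen receptor alpha), RXRG (retinoid X receptor gamma), NR1H4 (the bile acid receptor FXR) and NR0B1 (the corepressor-like receptor DAX1). Over all 275675632 counted reads, a count of 0 allows up to 3 reads, or 0.0109 CPM (counts scaled to 1000000 counted reads), and this limit covers counting error only. The other 10 genes without a test had at most 13 counts in a library. They are PGR and NR3C2, the progesterone and mineralocorticoid receptors, ESRRB and ESRRG of the estrogen-related receptors, the retinoic acid receptor RARB, the xenobiotic sensors NR1I2 and NR1I3, RORA and RORB of the clock-linked ROR family, and HNF4A of hepatocytes.

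Both classical estrogen receptors were thus at or near the detection limit, although genistein binds them. ESR2 (estrogen receptor beta, chr14:64550950-64804830 in GRCh37) had 4 and 4 counts in the Mia-PaCa-2 controls, 2 and 5 with genistein, 18 and 5 with gemcitabine and 13 and 13 with both drugs. In PANC-1 it had between 0 and 2 counts. Its FPKM reached at most 0.794, in a co-treated Mia-PaCa-2 library. A call under treatment or between the untreated lines needed a mean above 1 FPKM, so ESR2 could not be called there whatever its change. In the differences in response between the lines, judged by adjusted p alone, it did not pass. GPER1, the membrane estrogen receptor that is no member of this family, was above 1 FPKM in every PANC-1 library, between 1.97 and 3.88 FPKM. In Mia-PaCa-2 it stood at 0.595 and 0.435 FPKM in the controls and at 1.51 and 1.27 FPKM with gemcitabine.

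**Figure D1:**
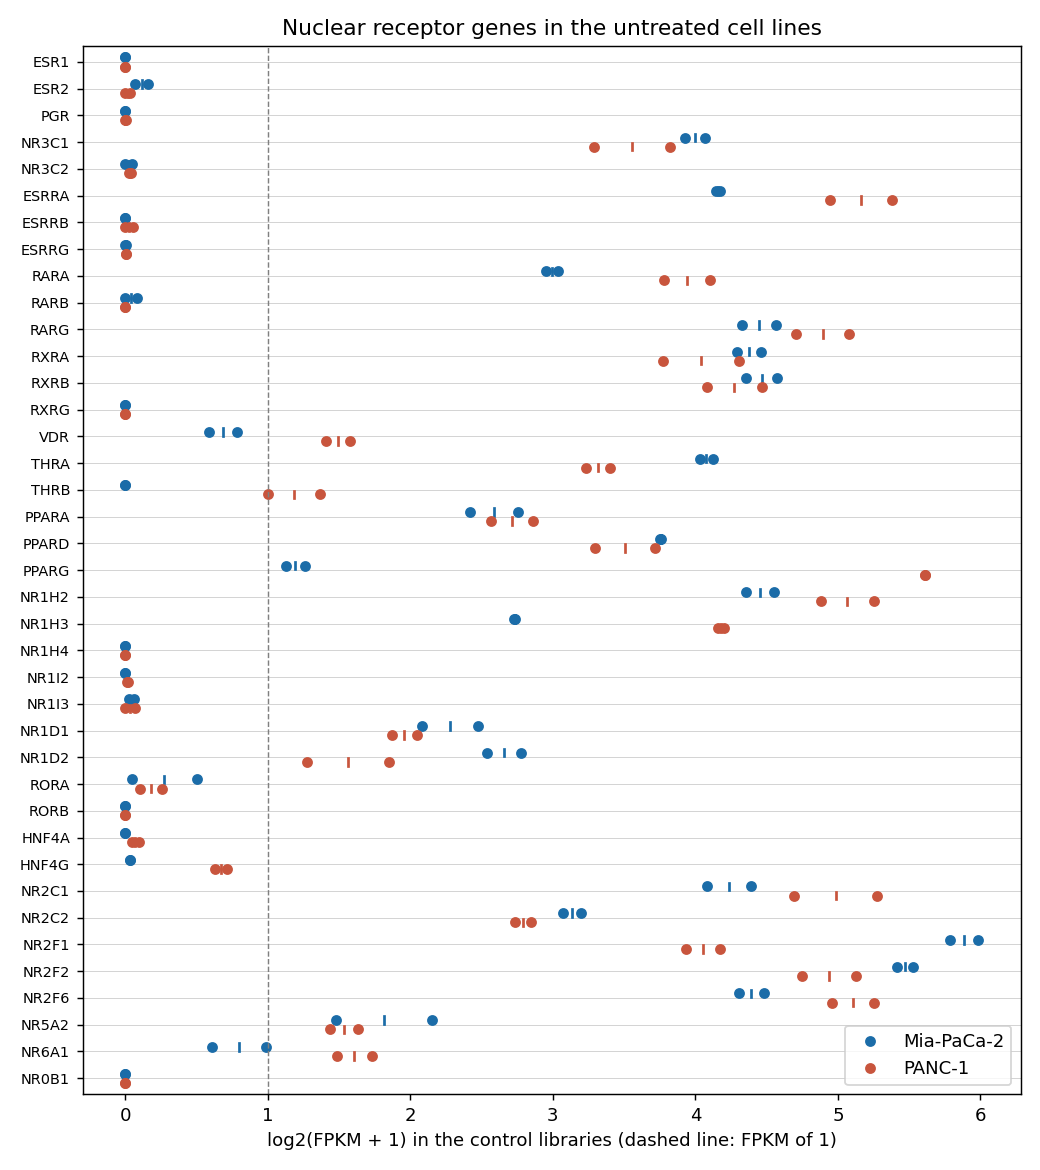
Levels of the 39 nuclear receptor genes in the untreated lines, as log2(FPKM + 1) on the horizontal axis, with 1 point per control library and a short line at the mean of 2. NR2F1 leads in Mia-PaCa-2 and PPARG in PANC-1, and the genes at the left edge, such as ESR1 and RXRG, have no or almost no reads in either line.

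NR2F1 (COUP-TFI, an orphan receptor of neural and mesodermal development) had the highest level in untreated Mia-PaCa-2, at 54.1 and 62.2 FPKM. It was followed by its relative NR2F2 (COUP-TFII) at 41.7 and 45.2 FPKM. Below these, RXRB, NR1H2, RARG, NR2F6 and RXRA had means from 19.8 to 21.2 FPKM and could not be ordered beyond their replicate ranges. In untreated PANC-1, PPARG led at 47.9 FPKM in both replicates. ESRRA, NR2F6, NR1H2, NR2C1, NR2F2 and RARG followed with means from 28.9 to 35.3 FPKM and overlapping replicates. Among the 22 genes with the highest means, 9 of 21 neighbouring pairs in the order were separated by their replicate ranges in Mia-PaCa-2 and 5 of 21 in PANC-1.

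The untreated lines were compared to see which receptors set them apart. Of the 25 members tested, 18 were called, 10 higher and 8 lower in PANC-1, and across all genes tested 52.3% were called. To be called, a gene needed an adjusted p no higher than 0.05, a log2 difference of 0.4 or more in either direction, and a mean over 1 FPKM in 1 of the lines. The median log2 difference, PANC-1 minus Mia-PaCa-2, was -0.18 for the members and 0.06 for all genes tested. These are bulk samples, so a lower level can mean fewer cells with the RNA or less RNA per cell.

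PPARG (chr3:12328867-12475855), the fatty acid receptor that drives adipocyte formation, had the widest gap among genes counted in both lines. Its CPM, here and below TMM-normalised, were 86.8 and 79.1 in the PANC-1 controls and 2.43 and 2.07 in the Mia-PaCa-2 controls. The log2 difference was 5.17 (SE 0.20, adjusted p = 1.87e-10). PPARG was not called under any treatment. At its low level in Mia-PaCa-2 it stood at 3.32 and 2.45 CPM with gemcitabine and at 1.49 and 1.78 CPM with both drugs. All 8 PANC-1 libraries, between 41.1 and 56.3 FPKM, lay far above the 8 Mia-PaCa-2 libraries, between 0.941 and 1.80 FPKM.

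THRB, a thyroid hormone receptor, had 0 counts in all 8 Mia-PaCa-2 libraries and stood at 5.31 and 7.16 CPM in the PANC-1 controls. Against a floor of 3 counts per library its level in untreated PANC-1 was at least 26.9-fold higher. The other thyroid hormone receptor, THRA, went the opposite way, with 61.5 and 61.0 CPM in the Mia-PaCa-2 controls and 39.6 and 35.6 in the PANC-1 controls (log2 difference -0.71, adjusted p = 2.78e-04). HNF4G had 1 and 0 counts in the Mia-PaCa-2 controls and 28 and 69 in the PANC-1 controls. It passed the test with a log2 difference of 4.95, a size that rests on counts near 0 in Mia-PaCa-2. Its mean in untreated PANC-1 was 0.594 FPKM and it was not called.

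NR2F1 was lower in PANC-1, at 24.9 and 24.8 CPM against 113.4 and 124 CPM in Mia-PaCa-2 (log2 difference -2.25, SE 0.10, adjusted p = 8.38e-10). NR2F2 fell on the same side with a log2 difference of -0.86, and so did the clock repressor NR1D2 (REV-ERB beta) with -1.28 and NR5A2 with -0.88. NR3C1, the glucocorticoid receptor, RXRA and PPARA differed by -0.52, -0.47 and -0.46. NR1H3, the oxysterol receptor LXR alpha that turns on cholesterol efflux, was higher in PANC-1, at 20.4 and 12.8 CPM against 4.496 and 5.51 (log2 difference 1.67, SE 0.24). VDR, at 10.0 and 9.56 CPM against 2.98 and 3.29, differed by 1.63, and the germ cell nuclear factor NR6A1 by 1.58. The orphan receptor NR2C1 was higher by 0.83. The call of NR3C1 was lost when either Mia-PaCa-2 control or PANC-1 control replicate 1 was left out, and its difference ranged from -0.83 to -0.25 with each control library left out in turn. That of RXRA was lost without replicate 2 of either line, with a range from -0.67 to -0.23, and that of NR2C1 without Mia-PaCa-2 control replicate 1, with a range from 0.46 to 1.13.

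The retinoic acid receptors RARA and RARG, the energy metabolism regulator ESRRA and the orphan receptor NR2F6 were also called higher in PANC-1, by 1.19, 0.72, 0.86 and 0.66. These are GC-rich genes, with 63.5%, 59.6%, 64.1% and 70.9% GC in their exons. After correction for GC content the calls of RARA, RARG and ESRRA were lost, and NR2F6 was called lower in PANC-1, at -0.70. Without Mia-PaCa-2 control replicate 1 the calls of ESRRA and NR2F6 were lost, and that of NR2F6 also without PANC-1 control replicate 1. The correction for GC content shifted the median of all genes from 0.06 to -0.24, and left 18 members called, 6 higher and 12 lower in PANC-1. Of all 17488 genes then tested, 10100 were called, 3796 higher and 6304 lower.

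**Figure D2:**
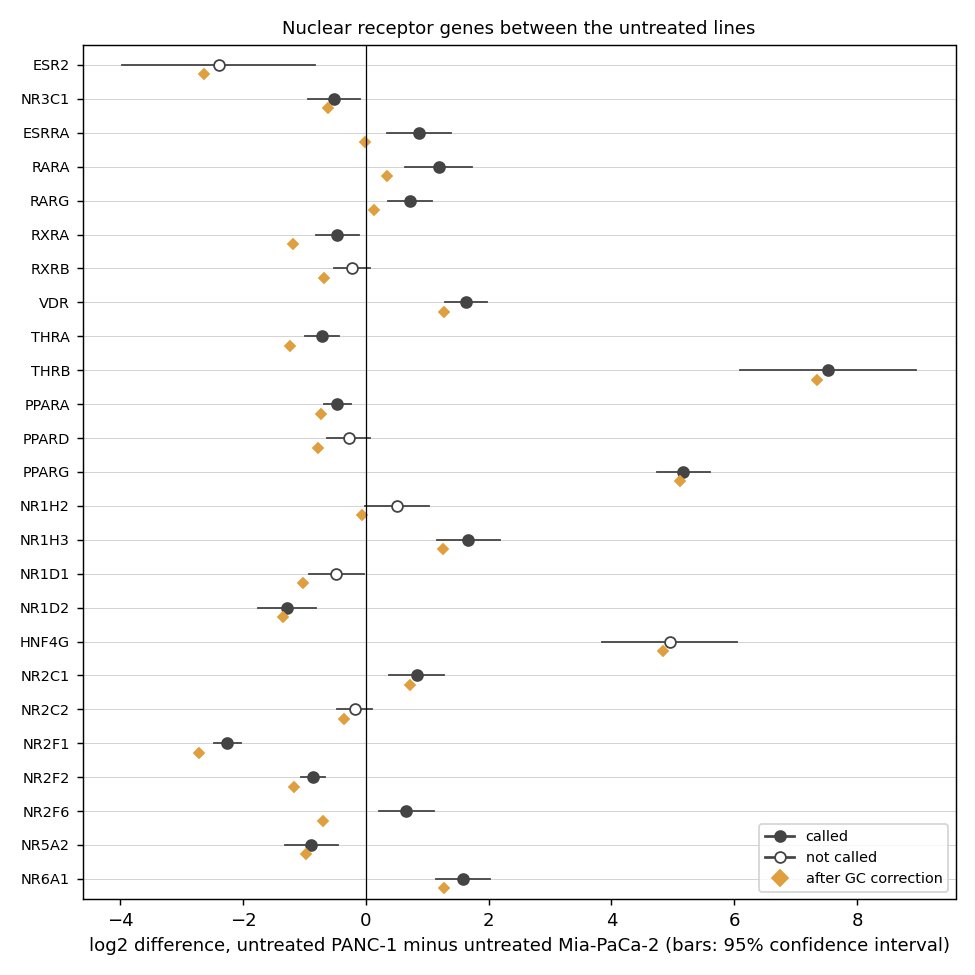
Log2 difference between untreated PANC-1 and untreated Mia-PaCa-2 for the 25 members tested, with 95% confidence intervals, filled circles for called genes and diamonds for the value after GC correction. THRB and PPARG stand far to the right and NR2F1 far to the left, while the diamonds of ESRRA and NR2F6 lie on the other side of 0 from their circles.

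VDR was called in 7 of the 9 comparisons. In Mia-PaCa-2 it stood at 2.98 and 3.29 CPM in the controls, 8.54 and 8.30 with genistein, 15.6 and 14.4 with gemcitabine and 29.2 and 29.2 with both drugs. The 4 groups did not overlap, and the level was highest with both drugs. In PANC-1 the values were 10.0 and 9.56 CPM in the controls, 9.14 and 8.95 with genistein, 15.2 and 14.9 with gemcitabine and 19.8 and 21.8 with both drugs.

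The increase in Mia-PaCa-2 was 1.41 log2 units with genistein (SE 0.19, adjusted p = 0.00131) and 2.20 with gemcitabine (SE 0.18, adjusted p = 5.82e-06). Genistein added to gemcitabine raised VDR by another 0.95 (SE 0.12, adjusted p = 8.05e-04). In PANC-1 gemcitabine raised it by 0.67 (SE 0.13, adjusted p = 0.0250). Genistein alone gave -0.07 in PANC-1 (95% confidence interval -0.41 to 0.26), and genistein added to gemcitabine gave 0.44, which was not called (adjusted p = 0.222). The response was smaller in PANC-1 than in Mia-PaCa-2 by 1.53 log2 units for genistein (adjusted p = 0.0279) and by 1.63 for gemcitabine (adjusted p = 3.22e-04). VDR lies at chr12:48235320-48336831 on the minus strand of GRCh37, and its level remained modest per length, at most 6.03 FPKM. Among known VDR targets, CAMP was listed at 0 in all libraries and CYP24A1 stayed at or below 0.483 FPKM.

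**Figure D3:**
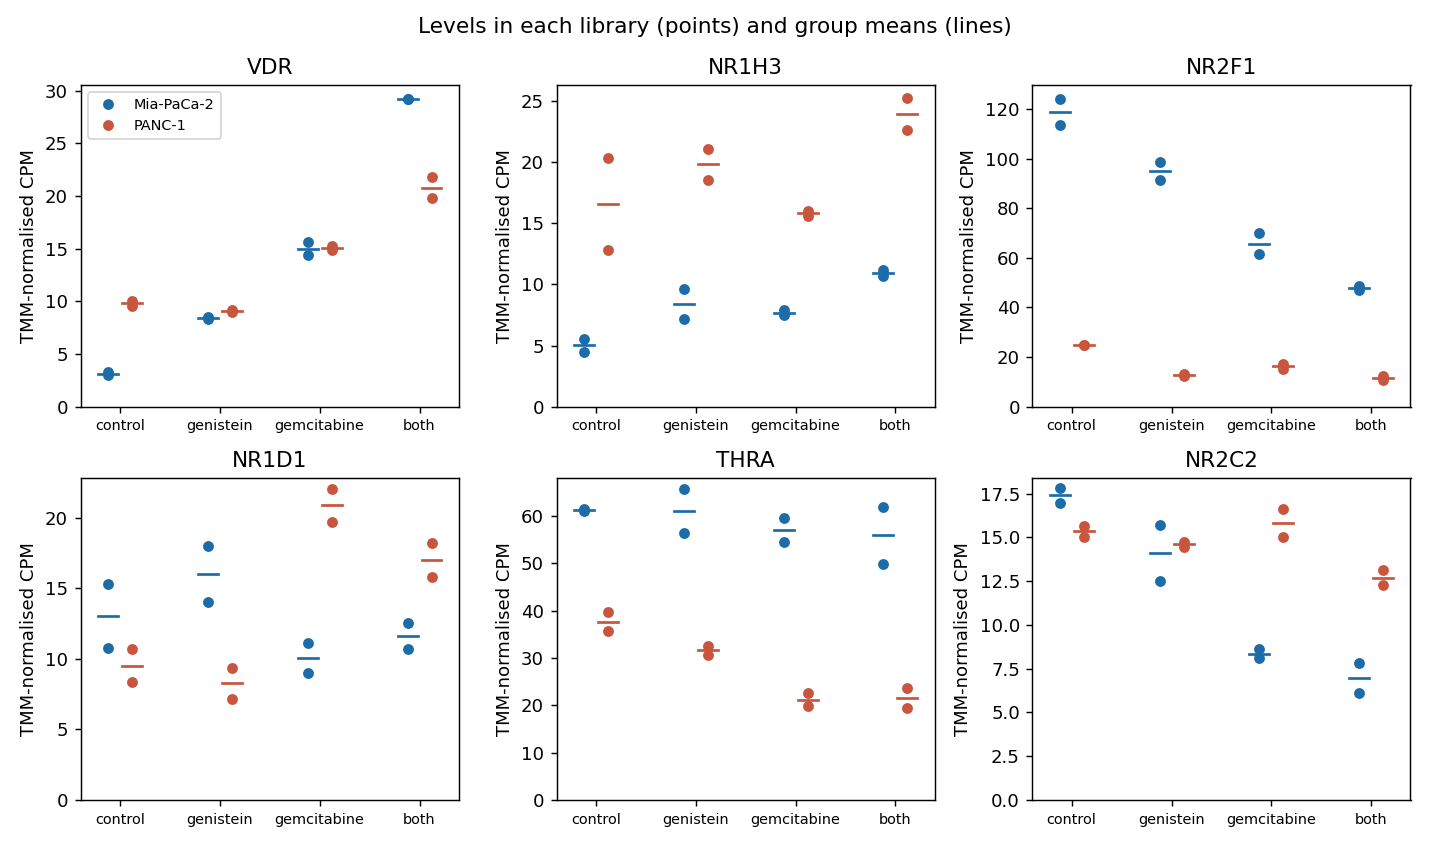
TMM-normalised CPM of VDR, NR1H3, NR2F1, NR1D1, THRA and NR2C2 in each of the 16 libraries, by treatment on the horizontal axis, with points for libraries and lines for the mean of 2. VDR runs from 2.98 to 29.2 CPM across the Mia-PaCa-2 groups, NR2F1 is lower in every treated group than in the control of its line, and NR1D1 is highest in PANC-1 with gemcitabine.

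The response to gemcitabine was then examined across the family. In Mia-PaCa-2, 12 of the 23 members tested were called, 4 higher and 8 lower, and across all genes 29.6% were called. In PANC-1, 4 of the 24 tested were called, 2 higher and 2 lower, against 7.52% of all genes. VDR was called higher and NR2F1 lower in both lines. The medians of the members were -0.16 in Mia-PaCa-2 and -0.15 in PANC-1, and those of all genes -0.01 and 0.03. The comparisons with genistein and with gemcitabine use the same control libraries of each line.

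NR2F1 fell in Mia-PaCa-2 from 113.4 and 124 CPM to 69.8 and 61.7 CPM under gemcitabine, a log2 change of -0.90 (SE 0.10, adjusted p = 2.65e-05). In PANC-1 it went from 24.9 and 24.8 CPM to 17.1 and 15.4 CPM, a change of -0.57 (SE 0.14, adjusted p = 0.0412). The groups did not overlap in either line. NR2F2 fell in Mia-PaCa-2 from 113.2 and 115.5 CPM to 73.6 and 70.2 CPM (log2 change -0.72, adjusted p = 5.64e-05), while its change in PANC-1 was -0.26 (adjusted p = 0.236).

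The orphan receptors NR2C1 and NR2C2, also named TR2 and TR4, fell in Mia-PaCa-2 as well. NR2C2 went from 17.8 and 16.99 CPM to 8.09 and 8.61 CPM, a change of -1.11 (SE 0.17, adjusted p = 3.19e-04), and NR2C1 changed by -0.82. In PANC-1 NR2C2 stood at 15.0 and 15.7 CPM in the controls and 16.6 and 15.0 CPM with gemcitabine. MRPS25 lies on the opposite strand along 60.5% of the exon length of NR2C2, and whether the counting used the strand is not given in the sources used here. NR5A2, a receptor that binds phospholipids, went from 9.66 and 8.73 CPM to 4.35 and 4.59 CPM in Mia-PaCa-2 (log2 change -1.09, adjusted p = 9.41e-04).

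The glucocorticoid receptor NR3C1 declined in Mia-PaCa-2 from 83.2 and 77.5 CPM to 57.4 and 51.0 CPM (log2 change -0.63, adjusted p = 0.00261). RXRA, the common partner of many receptors of this family, went from 101.3 and 117.3 CPM to 73.6 and 72.3 CPM (log2 change -0.63, adjusted p = 8.58e-04). Its relative RXRB changed by -0.24 and was not called.

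Besides VDR, 3 lipid sensors rose in Mia-PaCa-2. The oxysterol receptor NR1H2 (LXR beta) went from 41.8 and 49.5 CPM to 76.0 and 71.1 CPM (log2 change 0.64, adjusted p = 0.00555), and NR1H3 from 4.496 and 5.51 CPM to 7.49 and 7.92 CPM (0.58, adjusted p = 0.0332). PPARD, a ubiquitous fatty acid receptor, rose by 0.43 (adjusted p = 0.00976). The call of NR1H3 was lost when any 1 of the 4 compared libraries was left out, that of PPARD for 3 of them, and that of NR1H2 without control replicate 1 or gemcitabine replicate 1. These 3 calls were lost after correction for GC content, which left 14 members called in Mia-PaCa-2, 1 higher and 13 lower. Of all 15757 genes then tested, 4533 were called, 1962 higher and 2571 lower. The Mia-PaCa-2 controls had GC slopes of -0.23 and -0.14 against 0.14 and 0.06 in the gemcitabine libraries. Markers of the lines moved in the same comparison, with KRT19 at -1.40 and VIM at -0.66 in Mia-PaCa-2 and at -0.83 and -0.60 in PANC-1, and their part in these results was not tested. Of the ductal and mesenchymal markers tested, 1 of 3 and 2 of 2 were called in Mia-PaCa-2 and 2 of 6 and 1 of 3 in PANC-1, all lower. NAPSA overlaps NR1H2 on the opposite strand along 22.1% of its exon length.

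In PANC-1 the largest called change was in NR1D1 (REV-ERB alpha), a heme-binding repressor of the circadian clock. It went from 10.7 and 8.34 CPM to 22.1 and 19.7 CPM under gemcitabine, a log2 change of 1.197 (SE 0.18, adjusted p = 0.00954). THRA went down from 39.6 and 35.6 CPM to 22.5 and 19.8 CPM (log2 change -0.78, adjusted p = 0.0158). These genes are neighbours on opposite strands of chromosome 17 (NR1D1 at chr17:38249046-38256842 and THRA at chr17:38214543-38250120), and their ends overlap along 18.0% of the exon length of NR1D1. Without either PANC-1 gemcitabine replicate no member was called. Fewer were called without control replicate 1 and more without control replicate 2. The number of all genes called fell and rose along with these counts. After GC correction 8 members were called, 3 higher and 5 lower, and 3086 of all 16563 genes then tested. The call of NR2F1 was lost when any 1 of the 4 libraries was left out, and that of VDR for all but control replicate 2.

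**Figure D4:**
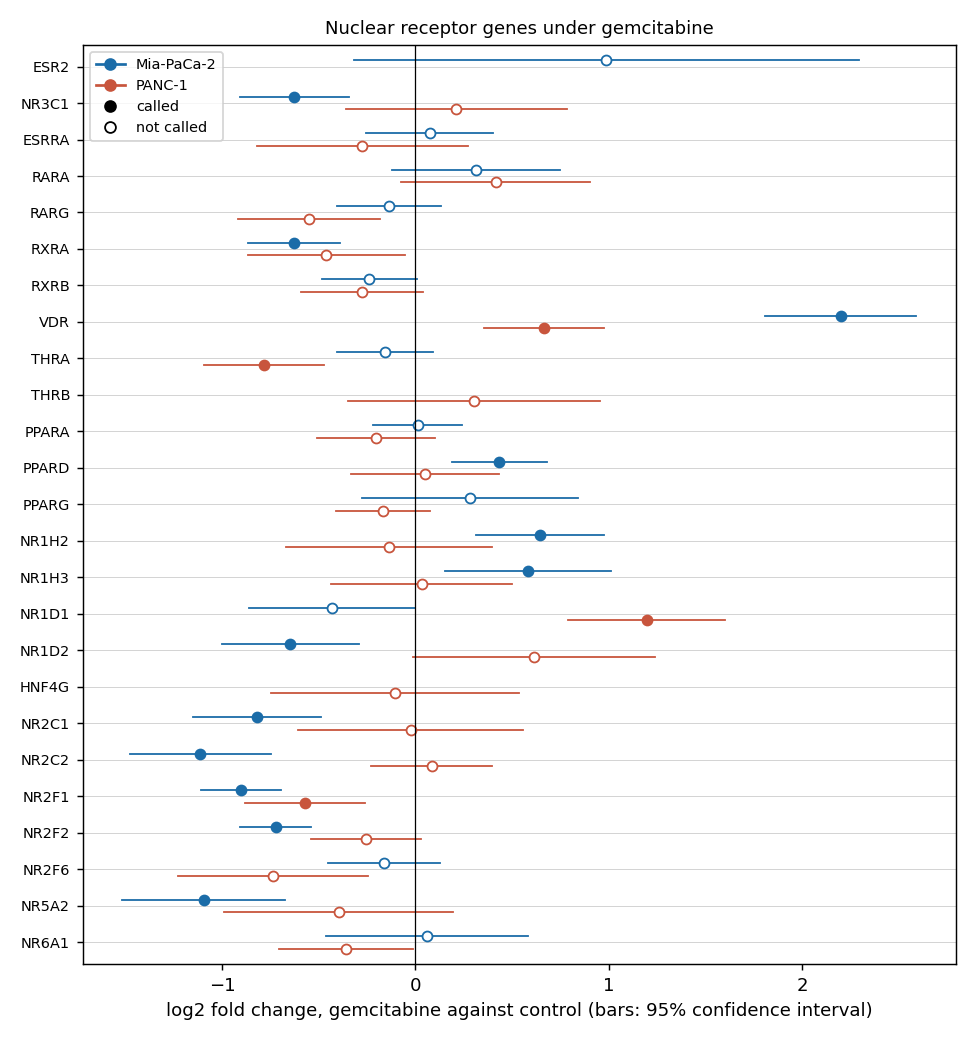
Log2 fold change of each member tested under gemcitabine, with 95% confidence intervals, blue for Mia-PaCa-2 and red for PANC-1, filled where called. VDR lies to the right of 0 in both lines, NR2F1 to the left in both, and NR1D1 and NR1D2 lie on opposite sides of 0 in the 2 lines.

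Whether the response to gemcitabine differed between the lines was tested directly. Of 25 members, 5 passed at an adjusted p of at most 0.05, and 15.3% of all genes did. NR1D1 changed by 1.197 in PANC-1 and -0.43 in Mia-PaCa-2, a difference of 1.54 (SE 0.29, adjusted p = 0.00510). The change in Mia-PaCa-2 was itself not called. NR1D2 changed by 0.61 in PANC-1, without being called, and by -0.65 in Mia-PaCa-2, and the difference was 1.15 (adjusted p = 0.0286). For NR2C2 the difference was 1.10 (adjusted p = 0.00425), for THRA -0.72 (adjusted p = 0.0245), and for VDR the value is given above. Of the 5, 3 had the higher value in PANC-1, and after GC correction 8 of 9 did. Of all 17488 genes tested after GC correction, 4641 passed, 2410 of them with the higher value in PANC-1. In Mia-PaCa-2, NR1D2 itself fell from 23.7 and 21.7 CPM to 15.7 and 14.5 CPM (adjusted p = 0.00797). That call was lost after GC correction and without control replicate 1 or gemcitabine replicate 2. The difference in NR1D2 was not past the threshold when any of 6 of the 8 libraries was left out, and ranged from 0.83 to 1.54. That of THRA was not past it when any of 5 of the 8 was left out, after GC correction, or with the replicate block with or without that correction.

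The REV-ERB genes belong to the feedback loop of the circadian clock, in which CLOCK and its partner bind E-boxes (CACGTG, the same on both strands). In RefSeq promoter windows of GRCh38.p14, each 250 bases before to 50 bases after a start, 7.26% of 35116 windows hold this motif. Windows were found for 36 of the 39 members, and 8 of their 89 windows (8.99%) hold it, from 6 genes, ESR2, NR1D2, NR2C1, NR2F2, PGR and RARA. The window of NR1D1 has none. Of the 2 windows of NR1D2, 1 has 2 E-boxes, the farther one 155 bases before the start, and its 250 bases before the start (chr3:23945871-23946120, plus strand) are shown with the E-boxes in capitals, because NR1D2 and its relative NR1D1 responded differently in the lines.
NR1D2: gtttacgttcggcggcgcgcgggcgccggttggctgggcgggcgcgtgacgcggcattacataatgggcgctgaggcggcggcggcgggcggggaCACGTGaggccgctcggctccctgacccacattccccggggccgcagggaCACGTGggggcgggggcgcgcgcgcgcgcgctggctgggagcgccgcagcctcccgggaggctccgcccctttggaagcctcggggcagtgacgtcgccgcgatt

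Genistein alone was then compared with the control. In Mia-PaCa-2, 3 of 23 members were called, 2 higher and 1 lower, and across all genes 8.31% were called. Besides VDR, NR1H3 rose from 4.496 and 5.51 CPM to 9.61 and 7.17 CPM (log2 change 0.70, SE 0.20, adjusted p = 0.0388). NR2C1 fell from 13.97 and 17.2 CPM to 9.44 and 10.1 CPM (log2 change -0.66, SE 0.15, adjusted p = 0.0176). NR2F1 had an adjusted p of 0.0349 with a change of -0.34, short of the fold threshold. The calls of NR1H3 and NR2C1 were lost without genistein replicate 1 and without either control replicate, while VDR stayed called. The number of all genes called also fell in these fits. NR1H3 was lost as well with library size alone, without the low-count filter and with the replicate block, and NR2C1 after GC correction. On log2(FPKM + 1) all 3 calls were lost, and 229 of all 16052 genes tested were called, fewer than in the main model. CD14, a monocyte marker, also changed in this comparison, from 4.06 and 4.98 FPKM to 1.94 and 1.01 FPKM, while the other leukocyte markers PTPRC and CD3E were listed at 0 in all Mia-PaCa-2 libraries. The part of CD14 in these results was not tested.

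In PANC-1 no member was called by limma-voom under genistein, where 0.0591% of all genes were. Of the 24 members tested, 5 had an unadjusted p of at most 0.05, and the share of all genes at that p is not given here. With edgeR 0 members were called, and 12 of all 16909 genes tested. With DESeq2 3 were called, RXRA, NR2F1 and NR2F6, all lower, and 754 of the 16909 genes. NR2F1 was at 24.9 and 24.8 CPM in the controls and 13.0 and 12.2 CPM with genistein, with no overlap, and its log2 change was -0.94 (95% confidence interval -1.27 to -0.61, adjusted p = 0.0825). NR1H3 changed by 0.35 (interval -0.13 to 0.82). The difference between the lines was past the threshold for VDR alone among 25 members, and 0.0336% of all genes passed. It was lost without any 1 of 6 of the 8 libraries, with values from -1.58 to -1.44.

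NR1H3 (chr11:47269851-47290584 in GRCh37) belongs to the receptors that bind, with a retinoid X receptor, repeats of the core hexamer AGGTCA. This hexamer, searched on both strands, occurs in 13.8% of all promoter windows and in 15 of the 89 windows of the members (16.85%), from 10 genes. NR1H3 is among them, and 1 of its 4 windows has the hexamer 140 bases before the start. The 250 bases before that start (chr11:47248050-47248299 of GRCh38.p14, plus strand) are shown with the hexamer in capitals, since NR1H3 was the lipid sensor called under each drug alone in Mia-PaCa-2.
NR1H3: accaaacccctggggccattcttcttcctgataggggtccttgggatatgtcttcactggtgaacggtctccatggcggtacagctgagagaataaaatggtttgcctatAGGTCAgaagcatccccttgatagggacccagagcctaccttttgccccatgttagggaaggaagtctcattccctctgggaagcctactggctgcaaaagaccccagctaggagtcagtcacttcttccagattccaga

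Genistein was also compared on a gemcitabine background. In Mia-PaCa-2, 2 of 23 members were called when both drugs were set against gemcitabine alone, and 5.88% of all genes were. VDR rose, as given above, and NR2F1 fell from 69.8 and 61.7 CPM to 47.1 and 48.5 CPM (log2 change -0.46, SE 0.10, adjusted p = 0.0195). NR1H3 went from 7.49 and 7.92 CPM to 11.2 and 10.7 CPM without being called (0.50, adjusted p = 0.0999). The call of NR2F1 was lost without either gemcitabine replicate.

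In PANC-1 no member was called by limma-voom for the added genistein, and 0.0177% of all genes were. Neither edgeR nor DESeq2 called any member, where they called 3 and 207 of all 16909 genes tested. At an unadjusted p of at most 0.05 by limma-voom there were 6 of 24 members. The share of all genes at that p is not given here. The largest of these changes were 0.58 for NR1H3, which went from 16.02 and 15.6 CPM to 22.7 and 25.3 CPM, and -0.52 for NR6A1, from 12.3 and 10.8 CPM to 7.26 and 9.04 CPM. After correction for GC content 5 members were called, NR1H3 higher and RXRA, NR2F1, NR2F2 and NR6A1 lower. Of all 16563 genes then tested, 1263 were called. The GC slopes of the co-treated PANC-1 replicates were -0.16 and 0.23.

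**Figure D5:**
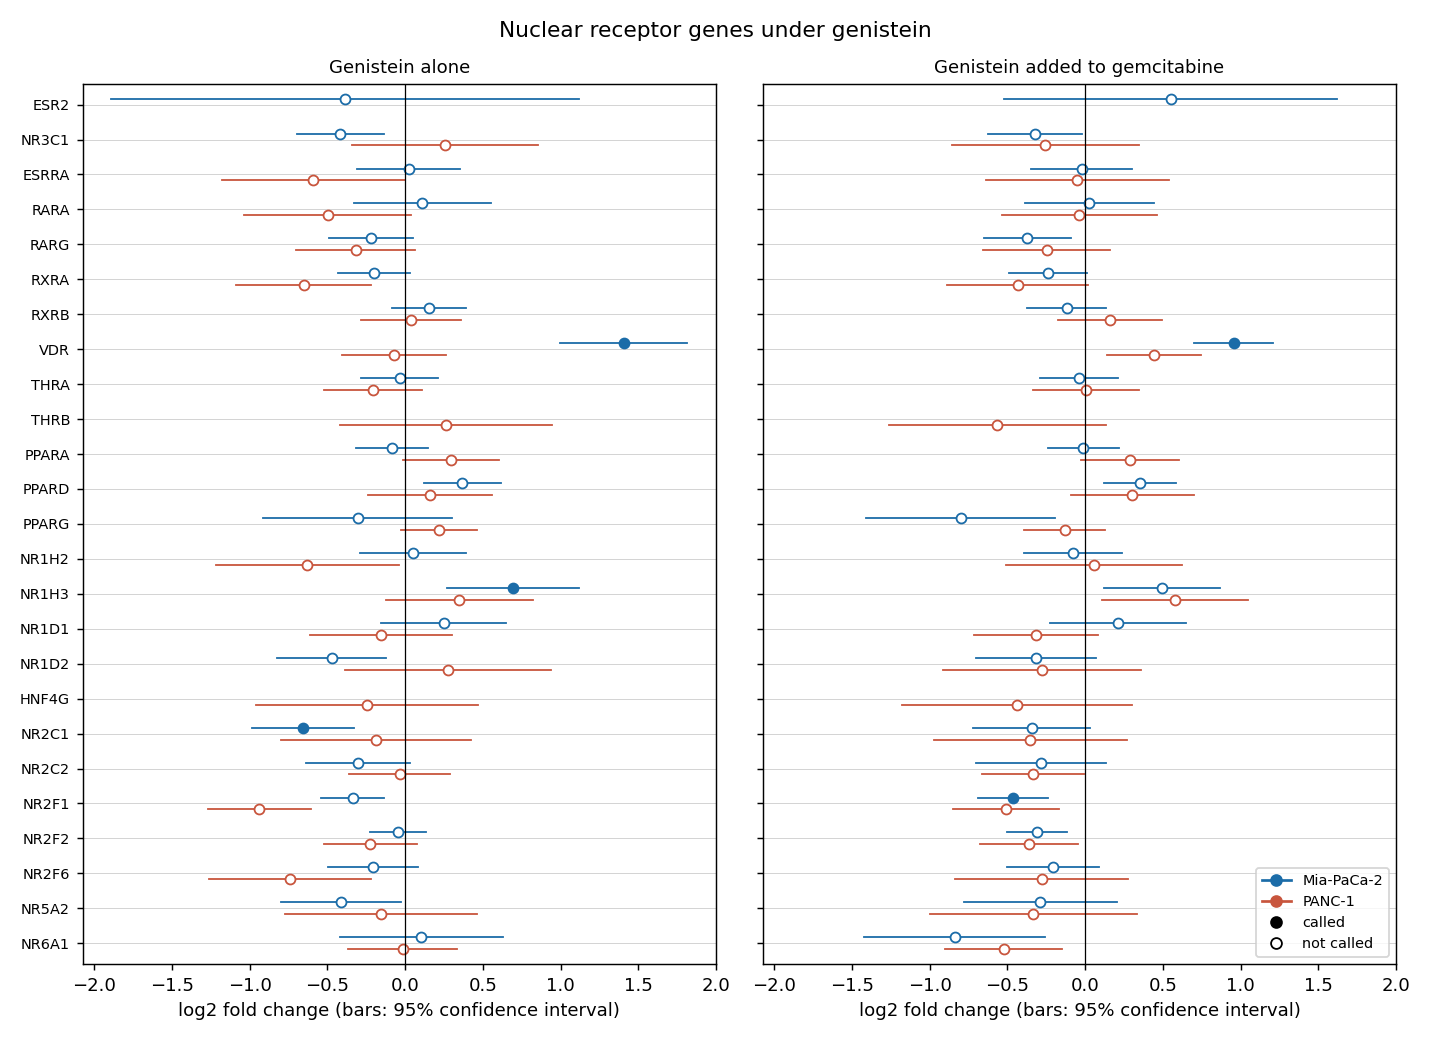
Log2 fold change of each member tested under genistein alone (left) and for genistein added to gemcitabine (right), with 95% confidence intervals, blue for Mia-PaCa-2 and red for PANC-1, filled where called. VDR in Mia-PaCa-2 lies at 1.41 and 0.95, and every PANC-1 symbol is open.

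Genes that work with the receptors were read from lists of known partners, enzymes and targets. Their calls come from the main model, and how they hold without a replicate or after GC correction is not given here. With gemcitabine 4 of 13 corepressors were called in Mia-PaCa-2, where 29.6% of all genes were, and 4 of 13 in PANC-1, where 7.52% were, all lower. HR, a corepressor that passed the test in Mia-PaCa-2 with a log2 change of 1.70 (adjusted p = 0.00167), was not called because its mean with gemcitabine was not above 1 FPKM. It went from 0.668 and 0.612 CPM to 2.42 and 2.07 CPM. NRIP1, at -1.53 (adjusted p = 0.00111), was not called for the same reason. CTBP2, NCOR1 and TBL1X were called in both, with log2 changes of -1.11, -0.81 and -0.66 in Mia-PaCa-2 and -0.43, -0.45 and -0.58 in PANC-1. In PANC-1 their adjusted p by limma-voom was 0.0457, 0.0453 and 0.0179, the first 2 close to the threshold. NCOR1, the scaffold that holds silent receptors in repression, went from 239 and 220 CPM to 136 and 136 CPM in Mia-PaCa-2 and from 142 and 156 CPM to 105.5 and 106.8 CPM in PANC-1. The medians of the list were -0.33 and -0.26, below those of all genes. Of 15 coactivators, 8 were called in Mia-PaCa-2, all lower, with PPARGC1B at -1.07 and NCOA2 at -0.61, and 0 of 15 in PANC-1, against the same 29.6% and 7.52% of all genes. Added genistein lowered the coactivator PPRC1 by 0.54 in Mia-PaCa-2, and in the other comparisons with genistein no gene of these lists was called.

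Among 19 tested target genes in Mia-PaCa-2, 5 were called with genistein (4 higher), where 8.31% of all genes were, and 8 with gemcitabine (6 higher), where 29.6% were. ABCG1, a cholesterol exporter and a known target of the LXR receptors, went from 13.9 and 14.7 CPM in the controls to 26.1 and 22.7 with genistein, 25.5 and 25.3 with gemcitabine and 38.4 and 44.3 with both drugs. All 3 contrasts were called, at 0.75, 0.78 and 0.70. The other LXR targets were uneven, since ABCA1 was at -0.75 with gemcitabine without being called and SREBF1 fell by 0.60 in Mia-PaCa-2 and by 1.06 in PANC-1. ANGPTL4, a target of the PPARs, rose by 1.32 with gemcitabine and by 0.64 with added genistein. TGM2, which retinoic acid induces, rose by 0.81 with genistein, while DHRS3, another gene it induces, was not called there. In PANC-1, 3 of 23 target genes were called with gemcitabine, against 7.52% of all genes, FKBP5 (0.86, a glucocorticoid target), SREBF1 and CPT1A (-0.48), and none with genistein. TSC22D3 and PER1, further glucocorticoid targets, were not called in PANC-1 with gemcitabine. The activity of the receptors was not tested.

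Of 13 tested clock genes, 7 were called with gemcitabine in Mia-PaCa-2 (2 higher) and 6 in PANC-1 (5 higher), against 29.6% and 7.52% of all genes. PER2, a core repressor of the clock, went from 13.4 and 11.8 CPM to 28.3 and 28.6 CPM in PANC-1, and the response differed between the lines by 1.44 (adjusted p = 3.60e-04). PER3 rose by 0.82 in PANC-1 and fell by 0.52 in Mia-PaCa-2. BHLHE40, which also represses the clock, rose by 1.42 in PANC-1. NFIL3 rose in both lines (0.57 and 0.90) and NPAS2 fell in both (-0.73 and -0.75). In Mia-PaCa-2, genistein lowered PER2 by 0.56 alone and by 0.70 when added to gemcitabine, and raised NFIL3 by 0.61 and 0.55.

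Of the genes of ligand supply and turnover, 10 passed the low-count filter in Mia-PaCa-2 and 4 of them were called with gemcitabine, where 29.6% of all genes were. They include HSD11B2, which inactivates cortisol, at 1.23, the retinal-forming enzyme RDH10 at 0.82 and the retinoic acid producer ALDH1A1 at -0.97. RDH10 rose by a further 0.92 with added genistein. With genistein alone STS, which frees sulfated steroids, fell by 0.57 and ALDH1A3 rose by 0.46. In PANC-1, 1 of 15 was called with gemcitabine, against 7.52% of all genes, namely CRABP2, a carrier of retinoic acid, at -0.63. GPER1 rose with gemcitabine in Mia-PaCa-2 (log2 change 1.13, adjusted p = 0.0162), and changed by 0.19 in PANC-1 without being called. It was higher in untreated PANC-1 by 2.001 log2 units.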

How the data were processed

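Per the labels, libraries were made with a stranded poly-A kit. By the submitters' processing notes and the study's methods, single reads were mapped to GRCh37 with TopHat2 2.0.4, multiply aligned reads were removed with Picard 1.29, counts came from HTSeq 0.6.1 and FPKM from Cufflinks 2.1.1. The authors deposited raw whole-number counts per gene and FPKM per gene and per isoform. FPKM are scaled to length and library size. The 39 members and all lists were chosen with earlier results of these data known.

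Counts were joined to members by Ensembl identifier, and repeated FPKM rows of an identifier were summed. RXRA and RXRB have 1 and 5 further identifiers, all at 0. Genes were filtered with filterByExpr, scaled with TMM (edgeR 4.0.16) and compared by limma-voom of limma 3.58.1 in R 4.3.3, with Benjamini-Hochberg adjustment over all genes tested. The 8 libraries of a line shared 1 model, and all 16 libraries the comparisons between lines, which were judged by adjusted p alone except for the untreated lines. For treatments the mean FPKM had to exceed 1 in the treated group. Values are given for every member called and for ESR1 and ESR2. From the companion lists, genes called in the same direction in both lines and up to 4 per list and comparison are named. ABCA1, CYP24A1, CAMP, DHRS3, TSC22D3, PER1, PER3, CD14, HR and NRIP1 were named after their values were seen. Coordinates, overlaps and GC content came from GENCODE v44 lifted to GRCh37. Alternatives were edgeR's quasi-likelihood test, DESeq2 1.42.0, DESeq2 size factors, library size alone, limma-trend on log2(FPKM + 1), no filter, only the compared libraries, a replicate block, a GC correction (loess, span 0.3), other criteria, and each replicate left out. The procedure was tested on simulated data.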

Additional observations from a re-analysis of the deposited data

Results flagged for a closer look

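For 6 values the response to a drug differed between the lines in the direct test. Values are PANC-1 minus Mia-PaCa-2 in log2 units. For genistein this was VDR, at -1.53, which was called in Mia-PaCa-2 and had a change of -0.07 in PANC-1. For gemcitabine VDR differed by -1.63, although it was called higher in both lines. THRA differed by -0.72, with a call in PANC-1 and a change of -0.16 in Mia-PaCa-2. NR1D1 differed by 1.54 and NR1D2 by 1.15, each with opposite signs in the lines. NR2C2 differed by 1.10, with a call in Mia-PaCa-2 and a change of 0.08 in PANC-1. The differences of NR1D1, NR2C2 and VDR under gemcitabine were called without any 1 of the 8 libraries.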

How the results depend on the processing

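Of 45 calls of a member in a comparison, 14 were kept under every alternative tried. VDR under gemcitabine and under added genistein in Mia-PaCa-2 was among them. DESeq2 size factors kept all 45, and edgeR and DESeq2 each lost 1. Signs reversed between the untreated lines for ESRRA after GC correction (-0.020), for PPARA on log2(FPKM + 1) (0.12), and for NR2F6 after GC correction (-0.70) and with the replicate block and GC correction (-0.77). The cause of these changes was not tested.

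On log2(FPKM + 1), members called in Mia-PaCa-2 numbered 0 for genistein, 5 for gemcitabine and 1 for added genistein. They numbered 1 for gemcitabine in PANC-1 and 0 for the difference in genistein response. All genes called on this scale numbered 229 of 16052 for genistein and 3193 of 16052 for gemcitabine in Mia-PaCa-2. They numbered 618 of 16899 for gemcitabine in PANC-1 and 3 of 17849 for the difference in genistein response. In each of these comparisons, and for added genistein in Mia-PaCa-2, fewer genes were called than in the main model. For genistein in PANC-1, DESeq2 called 3, and the 4 compared libraries alone, the GC correction and the GC correction with block 1 each. Of all genes, 754 and 355 of 16909 and 1227 and 824 of 16563 were called there. For gemcitabine in PANC-1, 2 were called without the filter, 1 with the compared libraries alone, 8 after GC correction and 7 with block and GC correction. Of all genes, 933 of 29451, 482 of 16909, and 3086 and 2850 of 16563 were called there. For added genistein in PANC-1, the GC correction gave 5 and block with GC correction 4, where 1263 and 833 of 16563 genes were called. The difference in genistein response had 2 calls with DESeq2 and 0 without the filter, where 185 of 17863 and 1 of 31526 genes were called. The difference in gemcitabine response had 9 calls after GC correction and 8 with block and GC correction, where 4641 and 4041 of 17488 genes were called.

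The labels do not say whether equal replicate numbers pair samples of different groups. Correlations between groups of the deviations between replicates ran from -0.30 to 0.16 in Mia-PaCa-2 and from -0.57 to 0.33 in PANC-1. They cannot settle this, because differences between single libraries, such as in GC slope, enter them. With the replicate block, calls numbered 1 for gemcitabine in PANC-1, 0 for the difference in genistein response and 3 for that in gemcitabine response. Elsewhere they stayed within 1.5 times the reported count. Of all genes, 442 of 16909, 0 of 17863 and 1516 of 17863 were called in these 3. In 4-library models chosen after seeing the data, same-numbered pairs gave 1 call for added genistein in Mia-PaCa-2 and 0 in PANC-1, and crossed pairs 2 and 5. Of all genes, same-numbered pairs called 686 and 48, and crossed pairs 1476 and 1525.

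With each replicate left out in turn, members called ranged from 1 to 4 for genistein, 8 to 11 for gemcitabine and 1 to 4 for added genistein in Mia-PaCa-2, and from 0 to 7 for gemcitabine in PANC-1. They were 0 throughout for both genistein comparisons in PANC-1. They ranged from 14 to 19 between the untreated lines, 0 to 1 for the difference in genistein response and 3 to 12 for that in gemcitabine response, with 12 without PANC-1 control replicate 2. In Mia-PaCa-2 added genistein gave 4 without co-treated replicate 1. A lone library was assumed to vary like the other groups. The number of all genes called also changed with the replicate left out. For the difference in gemcitabine response it was likewise highest without PANC-1 control replicate 2. Expressed members numbered 19 to 22 in Mia-PaCa-2 and 20 to 24 in PANC-1 under other cutoffs. Of 171 member values tested and not called, 42 were called under some alternative and 67 changed sign. The 14 members that did not pass the low-count filter were not compared. Of these, 4 had no counted read and 10 had at most 13 counts in a library.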

Other observations

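The deposited isoform FPKM of VDR in PANC-1 lay on different transcripts by treatment. ENST00000229022 had 1.65 and 1.54 FPKM in the controls and 2.74 and 2.74 with gemcitabine, but 0.024 and 0.023 with genistein and 0.022 and 0.019 with both drugs. ENST00000395324 had 0.012 and 0.117 FPKM in the controls and 0.072 and 0.011 with gemcitabine, but 1.53 and 1.52 with genistein and 3.59 and 4.07 with both drugs. In Mia-PaCa-2 ENST00000395324 held most of the estimate in all 8 libraries, and ENST00000229022 at most 0.023 FPKM. These are Cufflinks estimates from short reads, and no test was run on them.

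Counts and FPKM did not always give the same direction. In PANC-1 with genistein 6 of 24 members had opposite signs on the 2 scales. RARA went from 35.3 and 24.3 CPM to 21.3 and 18.5 CPM there, but from 16.2 and 12.7 FPKM to 19.2 and 17.1 FPKM. In PANC-1 with gemcitabine 0 of 24 had opposite signs, and in Mia-PaCa-2 2 of 23 with genistein and 1 of 23 with gemcitabine. NR1H3 in Mia-PaCa-2 with gemcitabine kept its direction but went from 5.66 and 5.62 FPKM to 12.4 and 15.4 FPKM, more than its counts.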
